A study of Homo sapiens with 18 samples.

Results

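Cholesterol and fatty acid synthesis was described through 28 genes in sorted human lymphoma cells. They were the rows of the count table, 28 of 58735 genes, whose symbol belongs to a list of 16 enzymes of the sterol branch, 8 genes of fatty acid synthesis, elongation and desaturation, and 4 regulators of sterol synthesis. The list names genes by pathway and the rule uses no measured value, but the list was set with earlier results of these data known. All 28 were found and all 28 passed the filter on low counts.

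OCI-Ly18 is an established human line of diffuse large B-cell lymphoma. Here the cells carried green fluorescent protein and grew under the skin of NSG mice, an immunodeficient strain that lacks lymphocytes and natural killer cells and keeps myeloid cells. Every mouse whose tumour was analysed received CART19, an infusion of T cells that carry a chimeric antigen receptor, so both groups share that infusion and differ in what came before it. The vehicle group (CART19-vehicle) comprised mice M_766, M_769 and M_770. The tazemetostat group (CART19-tazemetostat) comprised mice M_767, M_768 and M_774 and had been dosed with tazemetostat (EPZ6438), a drug that inhibits EZH2, the enzyme that methylates histone H3 in the PRC2 complex, at 150 mg/kg daily by mouth. Dosing with drug or vehicle began 3 days after implantation and ran for 14 days, and tumours were taken 11 days after the CART19 infusion. Green tumour cells were sorted away from the CAR T cells, and their total RNA was sequenced in bulk. The 18 libraries of the series all came from these groups, with none from mice infused with UTD cells. No label gives the age of the mice.

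Each mouse gave 3 libraries, lettered A, B and C. The labels do not say how these were made, so the mouse was the replicate (n = 3 per group) and the counts of its libraries were summed. The totals ran from 16124494 to 26336269 counts over libraries and from 55712115 to 69816184 over mice. Levels of single genes are given as CPM, which puts all libraries on the same total after TMM scaling. Sums over marker genes are CPM of the total counts without TMM scaling. B-cell marker genes summed to 6130 to 6592 CPM in the vehicle mice and 6299 to 6404 CPM in the tazemetostat mice, which fits the labelled cell type. Of 14 T-cell markers 9 were detected in every mouse, led by TRBC2 (115 ± 19.4 CPM with vehicle and 107 ± 13.3 CPM with tazemetostat), and CD3D and CD3G had 0 counts in all 6 mice. Of 6 adipocyte and hepatocyte markers PLIN1, ALB and APOA1 were detected in every mouse, with 0.630 to 0.896 CPM in sum over the 6 mice, and ADIPOQ, LEP and FABP4 had 0 counts. The counts are of human genes, so these markers are no measure of adipocytes or hepatocytes of the mouse host. In such bulk samples fewer cells of a type and less RNA per cell cannot be told apart. Library M_768_C of the tazemetostat group stood apart from M_768_A and M_768_B of the same mouse, and the results that rest on it are given with and without it.

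Cholesterol is built from acetyl-CoA through mevalonate and squalene, and fatty acids are built from the same acetyl-CoA through malonyl-CoA. Both branches are driven by the SREBP transcription factors, with SREBP2 (SREBF2) weighted to sterol genes and SREBP1 (SREBF1) to fatty acid genes. When membrane sterol is plentiful, INSIG proteins hold the SREBPs in the endoplasmic reticulum and the enzyme genes are turned down. Proliferating lymphoma cells use both branches to make membrane.

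Per kilobase of gene, the fatty acid branch held the most abundant transcripts. On the scale of CPM per kb of the deposited gene length, averaged over the 6 mice, ACLY, which makes cytosolic acetyl-CoA from citrate, stood at 86.5, FASN, the fatty acid synthase, at 64.0, and SCD, which desaturates the newly made chains, at 56.9. The regulator SREBF2 followed at 45.5. Among the sterol enzymes FDFT1, the squalene synthase, was the most abundant at 34.0 CPM per kb and PMVK, a mevalonate pathway kinase, came next at 27.1. The lowest values belonged to the late sterol enzymes SC5D at 2.08 and CYP51A1 at 1.13 CPM per kb. The level of CYP51A1 is uncertain: 79.4% of its 3584 exon bases also belong, on the same strand, to the annotated gene AC000120.2, which held 0 counts. ACAT2 is uncertain as well, since 52.3% of its exon bases overlap exons on the opposite strand and no source used here says whether the counting used strand. FADS1 and FADS2 overlap each other by 490 exon bases on opposite strands. The 13 pseudogenes named after these genes held 289 counts in all over the 18 libraries.

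Promoter sequence is shown for 6 genes to compare the letters upstream of the regulators, of the sterol enzymes and of a fatty acid enzyme. Windows from 250 bases before to 50 bases after the start were taken from RefSeq on GRCh38.p14 for 24 of the 28 genes, the first listed window for each. That start was not always the start of the counted gene. The window of IDI1 (chr10:1056655-1056954) lay outside the counted gene (chr10:1039152-1049170), and those of FADS1, FADS2 and ACLY lay inside the gene. The promoter source used here held no window for ACAT2, FDFT1, SQLE and FASN, so the counts below leave these genes out. The CCAAT box, searched as CCAAT on both strands, was found in 10 of 13 sterol enzymes, 3 of 7 fatty acid genes and 3 of 4 regulators. It was found in 34.6% of all 35116 promoter windows of the source, which were not limited to 1 per gene. A sterol regulatory element, searched as TCACNCCAC on both strands, was found in 1 of the 24 windows, that of SREBF2, and in 1.13% of all windows. The E-box CACGTG was found in 4 of the 24 and in 7.26% of all windows, and the GC box GGGCGG in 21 of the 24 and in 45.0% of all. These are matches of letters, and no binding was measured. The stretches below run 5′ to 3′ on the strand of the gene and lie upstream of the annotated start, with CCAAT boxes (read as ATTGG where they lie on the other strand) and the sterol element in capitals. SREBF2 is read from chr22:41832957-41833018 (plus strand), STARD4 from chr5:111512646-111512711 (minus strand), MVD from chr16:88663162-88663265 (minus strand), MSMO1 from chr4:165327469-165327612 (plus strand), NSDHL from chrX:152830820-152830966 (plus strand) and SCD from chr10:100346989-100347066 (plus strand).
SREBF2: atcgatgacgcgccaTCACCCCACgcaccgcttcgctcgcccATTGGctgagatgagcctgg
STARD4: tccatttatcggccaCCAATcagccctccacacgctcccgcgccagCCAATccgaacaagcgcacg
MVD: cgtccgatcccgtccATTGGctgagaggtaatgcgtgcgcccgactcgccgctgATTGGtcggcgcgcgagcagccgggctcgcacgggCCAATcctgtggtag
MSMO1: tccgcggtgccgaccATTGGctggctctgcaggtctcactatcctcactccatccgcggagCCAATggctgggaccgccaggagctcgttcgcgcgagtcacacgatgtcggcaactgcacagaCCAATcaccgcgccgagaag
NSDHL: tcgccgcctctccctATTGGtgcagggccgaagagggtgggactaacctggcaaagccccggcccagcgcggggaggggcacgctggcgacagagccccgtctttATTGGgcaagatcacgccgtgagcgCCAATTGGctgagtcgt
SCD: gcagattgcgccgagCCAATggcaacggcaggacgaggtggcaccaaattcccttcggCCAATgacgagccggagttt
The capitals of SREBF2 begin with the sterol element at position -133 from the start, followed by an inverted CCAAT box at -106. STARD4 has 2 boxes in the forward direction at -161 and -130. Of the sterol enzymes printed, MVD has 3 boxes in its stretch, MSMO1 has 3 and NSDHL has 4, where the last box pair shares bases (CCAATTGG). They were picked for their boxes: in the windows of PMVK, IDI1 and CYP51A1 0 were found, and in those of LSS and SC5D 1 each. SCD, of the fatty acid branch, has 2 forward boxes at -229 and -186.

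The comparison of tazemetostat with vehicle mice asked whether earlier EZH2 inhibition left a mark on these genes in tumour cells taken after the CART19 infusion. None of the 28 genes passed the test (edgeR quasi-likelihood, Benjamini-Hochberg adjusted p under 0.05 over all 20301 genes tested). Over all genes 7 passed, 0.0345% of those tested, 4 higher and 3 lower in the tazemetostat mice. The smallest adjusted p among the 28 was 0.72, for STARD4. At an unadjusted p under 0.05 the count was 1 of 28, against 6.55% of all tested genes, and DESeq2 and limma-voom on the mouse sums also called 0 of 28. The count over all genes depended on single mice: it was 26 without M_766, 1 without M_767, 0 without M_768, M_769 or M_774, and 59 without M_770. In each of these fits 0 of the 28 were called.

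The fold changes were small in both branches. The median log2 fold change, tazemetostat against vehicle, was -0.03 for the 16 sterol enzymes, -0.02 for the 8 fatty acid genes and -0.04 for the 4 regulators, beside -0.01 for all tested genes. Of the sterol enzymes 6 had a positive and 10 a negative value, between -0.16 and 0.16. Of the fatty acid genes 2 were positive and 6 negative, between -0.15 and 0.11. The 95% interval of the fold change stayed inside 1.5-fold in either direction for 27 of the 28 genes, against 11181 of all 20301 tested genes. The exception was CYP51A1, at 4.28 CPM with vehicle and 3.81 CPM with tazemetostat, whose interval reached down to 0.64-fold. All tested genes were not matched to the 28 for level, and 9416 of them had a mean of at least 10 CPM. The 2 shares are therefore no comparison of stability.

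**Figure D1:**
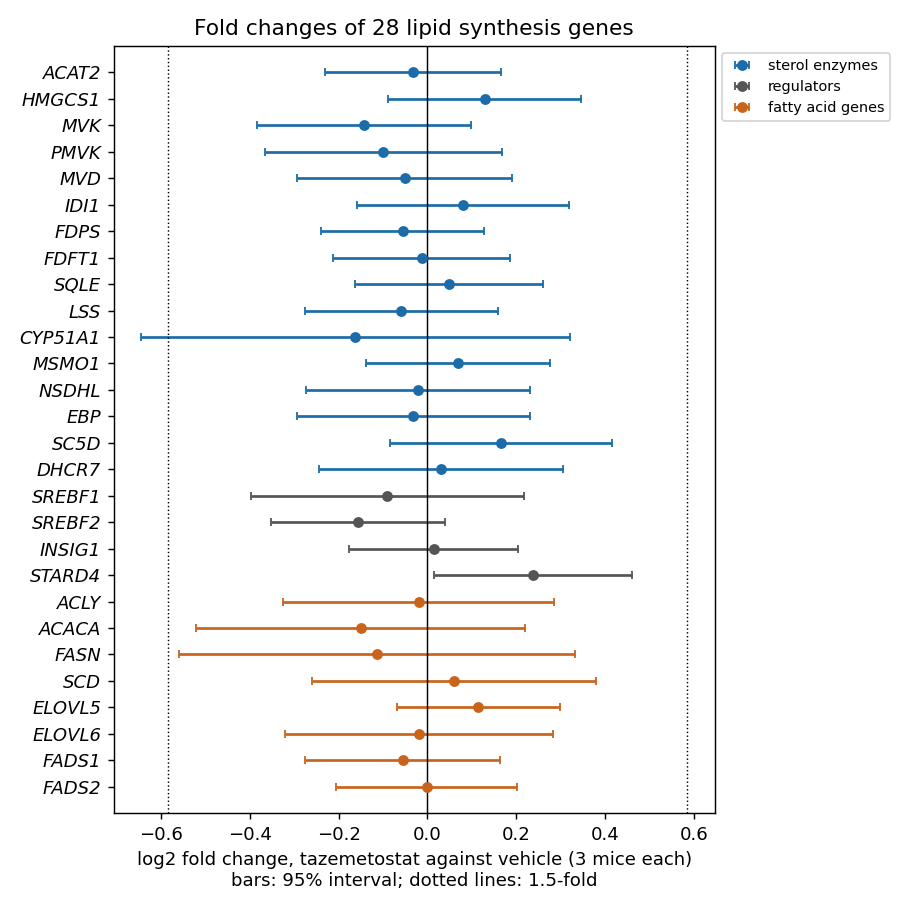
Log2 fold change, tazemetostat against vehicle (3 mice each), of the 16 sterol enzymes, 4 regulators and 8 fatty acid genes, with 95% intervals as bars and dotted lines at 1.5-fold. The points lie between -0.16 (CYP51A1) and 0.24 (STARD4), and only the bar of CYP51A1 crosses a dotted line.

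The early sterol enzymes, which take acetyl-CoA to the activated isoprene unit, had 1 positive and 4 negative values with a median of -0.05. HMGCS1, which makes HMG-CoA, was the positive one at 0.13 (SE 0.10, adjusted p = 0.884). Its level was 70.2, 79.9 and 75.2 CPM in vehicle mice M_766, M_769 and M_770 and 84.9, 73.6 and 87.8 CPM in tazemetostat mice M_767, M_768 and M_774. Mouse M_768 lay among the vehicle mice, so the groups overlapped. MVK, the mevalonate kinase, had the lowest value of this group at -0.14 (SE 0.11, adjusted p = 0.884), with 28.4, 23.1 and 26.6 CPM against 21.6, 24.0 and 25.1 CPM. These overlapped too. ACAT2, the thiolase at the head of the branch, PMVK, the next kinase, and MVD, the decarboxylase, lay between -0.10 and -0.03.

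The isoprenoid and squalene steps were split, with 2 positive and 2 negative values and a median of 0.02. IDI1, the isopentenyl diphosphate isomerase, stood at 91.5 ± 10.8 CPM (SD, n = 3) in the vehicle group and 96.7 ± 8.03 CPM (n = 3) in the tazemetostat group. FDPS, which makes farnesyl diphosphate, had a narrow spread, 66.1 ± 2.11 against 63.6 ± 2.60 CPM. FDFT1, the first enzyme committed to sterols, had 178 ± 11.7 against 176 ± 8.51 CPM, and SQLE, which oxidises squalene and is a rate-limiting step, 97.3 ± 6.89 against 101 ± 7.73 CPM. The group means of all 4 genes differed by less than the larger SD of the pair.

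The steps after squalene had 3 positive and 4 negative values with a median of -0.02. SC5D, the sterol desaturase near the end of the pathway, was the one sterol enzyme whose groups did not overlap. It measured 10.5, 10.3 and 11.88 CPM in vehicle mice M_766, M_769 and M_770 and 11.89, 12.2 and 12.6 CPM in M_767, M_768 and M_774. The gap between the groups was the narrow one between M_770 and M_767, and the log2 fold change of 0.16 (SE 0.11) did not pass the test (adjusted p = 0.864). Over single libraries the groups did overlap, with 9.61 to 12.5 CPM (median 11.1) in the 9 vehicle and 10.5 to 14.2 CPM (median 12.0) in the 9 tazemetostat libraries. LSS, which closes the sterol rings, had 94.97 ± 3.20 against 91.2 ± 9.85 CPM, and DHCR7, the last reductase on the way to cholesterol, 51.4 ± 8.17 against 52.5 ± 4.86 CPM. CYP51A1, the lanosterol demethylase, read 3.01, 4.57 and 5.27 CPM in the vehicle mice and 4.17, 4.10 and 3.17 CPM in the tazemetostat mice. Its vehicle values enclosed the tazemetostat values. MSMO1, NSDHL and EBP, which remove methyl groups and shift the double bond, lay between -0.03 and 0.07.

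Groups that did not overlap were counted over all 28 genes, whatever the test gave. In the tazemetostat mice 3 of 28 were higher throughout (SC5D, STARD4 and ELOVL5), against 6.58% of all tested genes, and 1 of 28 was lower throughout (SREBF2), against 6%. These counts moved with the scaling. With DESeq2 size factors STARD4 and ELOVL5 stayed higher and SREBF2 lower, with upper-quartile factors SREBF2 alone remained, and with total counts SC5D and STARD4 remained and SREBF2 did not. Without library M_768_C, STARD4, ELOVL5 and SREBF2 remained and SC5D did not.

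Among the regulators, STARD4 and SREBF2 lay on opposite sides. STARD4, a carrier of sterol between membranes whose upstream sequence is printed above, lies at chr5:111496033-111512590 (hg38, minus strand). Its level was 40.4, 45.3 and 49.2 CPM in vehicle mice M_766, M_769 and M_770 and 56.7, 49.5 and 53.0 CPM in tazemetostat mice M_767, M_768 and M_774. The highest vehicle mouse, M_770, lay just under the lowest tazemetostat mouse, M_768. The log2 fold change was 0.24 (SE 0.10, 95% interval 0.02 to 0.46, adjusted p = 0.72), the largest of the 28. Over libraries STARD4 ran from 38.3 to 51.7 CPM (median 45.3) with vehicle and from 47.1 to 58.4 CPM (median 52.2) with tazemetostat, so single libraries overlapped.

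SREBF2, at chr22:41833079-41907308 (hg38, plus strand), measured 354, 362 and 373 CPM in vehicle mice M_766, M_769 and M_770 and 344, 306 and 327 CPM in tazemetostat mice M_767, M_768 and M_774. All tazemetostat mice lay below all vehicle mice. Single libraries overlapped, with 344 to 376 CPM in the vehicle and 291 to 358 CPM in the tazemetostat libraries. The log2 fold change was -0.16 (SE 0.09, 95% interval -0.35 to 0.04, adjusted p = 0.83) and -0.14 without library M_768_C, which held the lowest library value, 291 CPM. SREBF1 stood at 147 ± 30.6 against 138 ± 11.5 CPM, and its vehicle mice spanned more than its tazemetostat mice did (122, 138 and 181 CPM against 147, 141 and 125 CPM). INSIG1, itself a sterol-responsive gene, had 115 ± 2.22 against 116 ± 7.54 CPM and a log2 fold change of 0.01.

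Genes of the early stress response, which dissociation of tissue can induce, were mostly higher in the tazemetostat group, though the mouse sums overlapped. Of 23 such genes tested 21 had a positive fold change with a median of 0.54. Without overlap 10 of the 23 were higher with tazemetostat, against 6.58% of all tested genes. At an unadjusted edgeR p under 0.05 the count was 12, against 6.55% of all tested genes, though 0 of the 23 were called. Their sum was 3514 to 4918 CPM in vehicle mice and 4819 to 5915 CPM in tazemetostat mice. HSP90AA1 (1691 CPM with vehicle) and HSPA8 (1346 CPM with vehicle) weighed most in that sum. Stromal genes summed to 14.0 to 20.7 CPM with vehicle and 20.8 to 22.9 CPM with tazemetostat, with COL3A1 at 0 counts and 7 of 9 genes detected in every mouse. These too are human genes and are no measure of stroma of the mouse host. T-cell genes summed to 156 to 187 and 160 to 191 CPM. Of 6 T-cell genes tested 3 were positive and 3 negative, with a median of -0.01. CD247 was the only 1 of the 6 without overlap, at 36.6 ± 5.82 against 49.2 ± 3.95 CPM (edgeR, adjusted p = 0.465). The part of these genes in the values of STARD4, SC5D, ELOVL5 and SREBF2 was not tested.

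**Figure D2:**
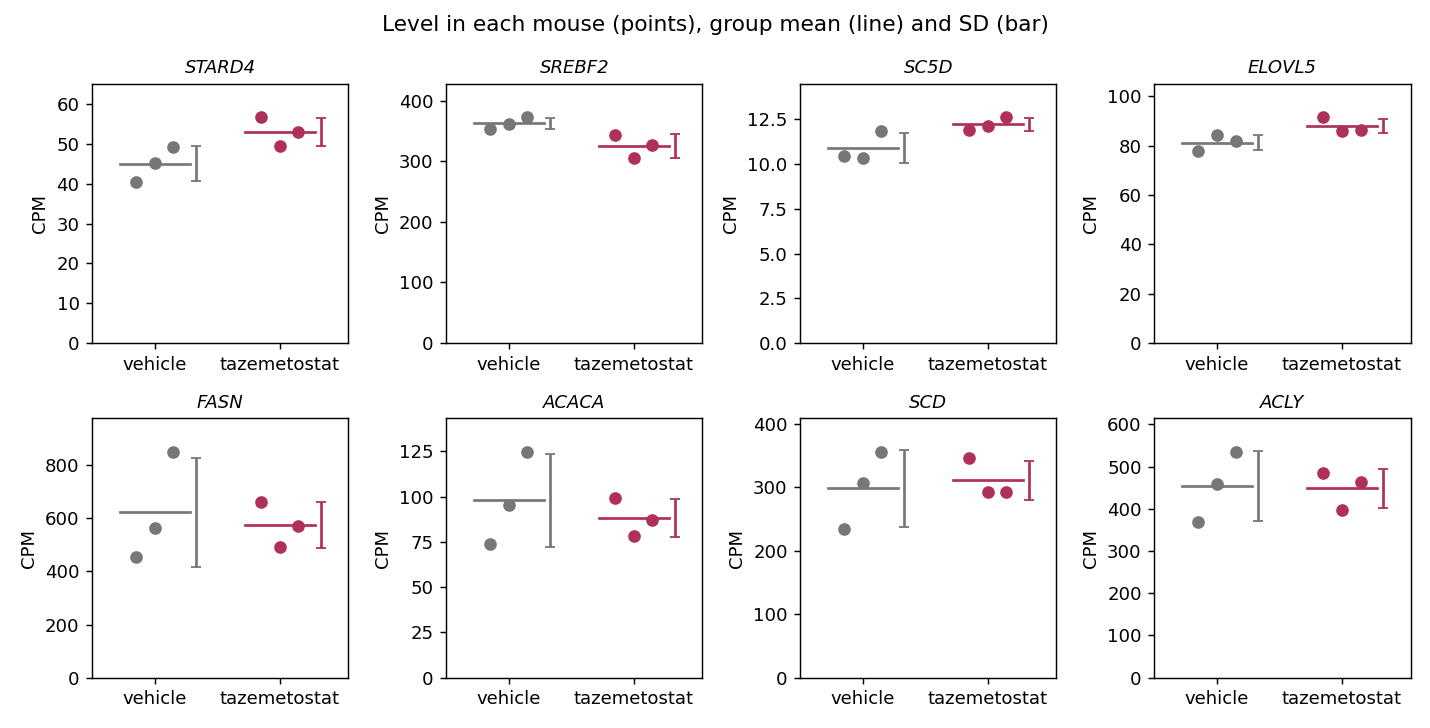
Level in CPM of 8 genes in each mouse (points), with the group mean (line) and SD (bar, n = 3), vehicle in grey and tazemetostat in red. STARD4, SC5D and ELOVL5 are higher and SREBF2 is lower in every tazemetostat mouse, while FASN, ACACA, SCD and ACLY overlap and spread more widely, above all in the vehicle mice.

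The fatty acid genes ACLY, ACACA, FASN, SCD and ELOVL6 spread widely between mice of the same group. FASN, which assembles palmitate, measured 455, 562 and 849 CPM in vehicle mice M_766, M_769 and M_770 and 663, 492 and 571 CPM in tazemetostat mice M_767, M_768 and M_774. The lowest and the highest mouse were both vehicle mice, 1.87-fold apart, and the tazemetostat mice lay between them. The log2 fold change was -0.11 (SE 0.20, adjusted p = 0.964). It was 0.18 without M_770, so 1 mouse set its sign. ACACA, which makes malonyl-CoA, followed the same order, with 73.7, 95.4 and 124 CPM against 99.1, 78.4 and 86.9 CPM. Its log2 fold change of -0.15 (SE 0.17, adjusted p = 0.929) became 0.06 without M_770.

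SCD measured 234, 306 and 355 CPM in M_766, M_769 and M_770 and 347, 293 and 293 CPM in M_767, M_768 and M_774. ACLY measured 369, 460 and 534 CPM with vehicle and 485, 396 and 464 CPM with tazemetostat. ELOVL6, which lengthens palmitate, measured 84.6, 107 and 125 CPM with vehicle and 108, 94.0 and 111 CPM with tazemetostat. In all 3 genes M_766 was the lowest and M_770 the highest mouse, 1.52-fold apart for SCD, 1.45-fold for ACLY and 1.48-fold for ELOVL6.

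The genes that handle polyunsaturated chains did not share that spread. ELOVL5, which lengthens them, measured 77.9, 84.2 and 81.7 CPM in M_766, M_769 and M_770 and 91.4, 86.1 and 86.4 CPM in M_767, M_768 and M_774. Its groups did not overlap, with a log2 fold change of 0.11 (SE 0.08, adjusted p = 0.877). Single libraries of ELOVL5 did overlap, with 73.1 to 86.5 CPM in the vehicle and 82.4 to 91.7 CPM in the tazemetostat libraries. FADS2, the first desaturase of these chains, had 163 ± 6.54 against 163 ± 13.6 CPM, and FADS1, the next desaturase, 147 ± 5.01 against 141 ± 15.4 CPM. The ratio of the highest to the lowest mouse was 1.17 for ELOVL5, 1.18 for FADS2 and 1.24 for FADS1.

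As a measure of spread, the SD of log2 CPM between mice of a group had a median of 0.22 over the fatty acid genes, 0.125 over the sterol enzymes and 0.128 over the 9416 genes with a mean of at least 10 CPM. FASN lay at the 98.2 percentile of those genes, ACACA at 95.3, SCD at 88.3 and ELOVL6 at 85.1, whereas ELOVL5 lay at 6.72 and FADS2 at 30.2. Wide spread was not confined to the fatty acid genes. SREBF1 lay at 85.9, DHCR7 at 77 and CYP51A1, itself under 10 CPM, at 97.5. Of the 28 genes 8 had M_770 as the highest and M_766 as the lowest mouse, 5 of them fatty acid genes (ACLY, ACACA, FASN, SCD and ELOVL6), with SREBF1, DHCR7 and CYP51A1. Among the 9416 genes 10.2% had this order. A further 8, all sterol enzymes (ACAT2, MVK, PMVK, MVD, FDPS, FDFT1, NSDHL and EBP), were highest in M_766, as were 26% of the 9416. These patterns were chosen after the values were seen and carry no test.

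**Figure D3:**
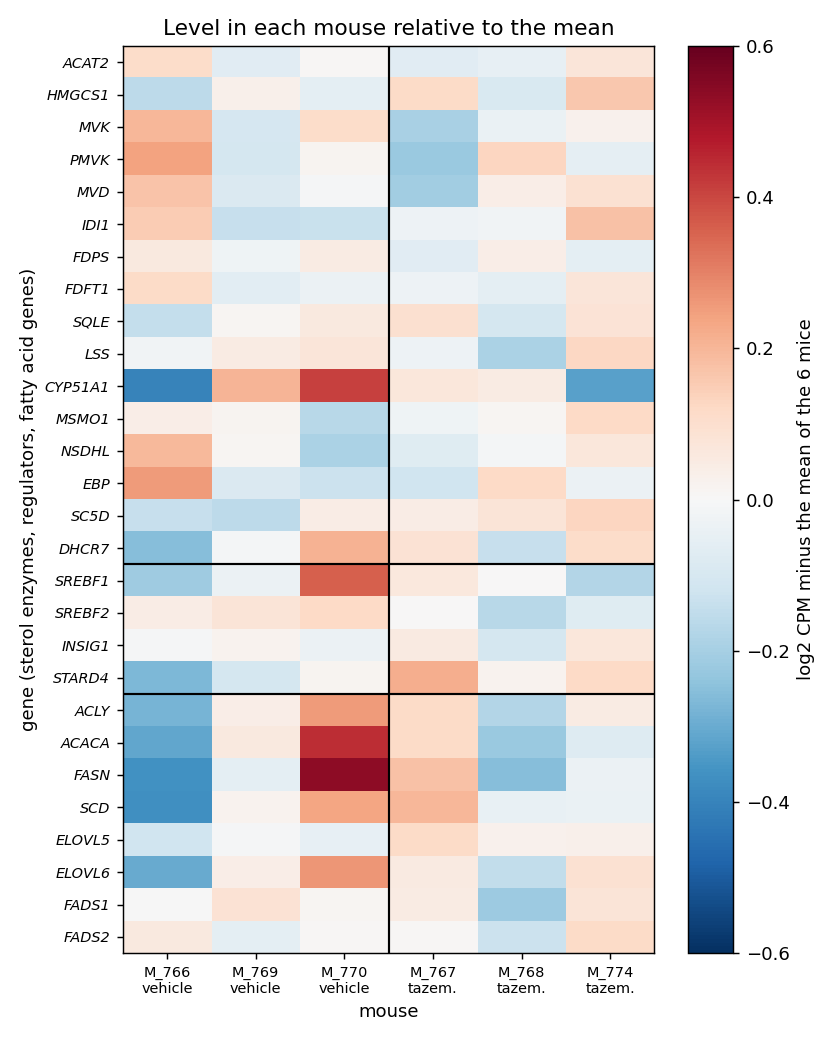
Log2 CPM of each of the 28 genes in each mouse minus the mean of the 6 mice, as colour (red above, blue below), with vehicle mice left and tazemetostat mice right of the vertical line and branches parted by horizontal lines. FASN, ACACA, SCD, ACLY and ELOVL6 are bluest in M_766 and reddest in M_770, both vehicle mice, while EBP and PMVK are reddest in M_766.

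Gene length moved with this difference between the 2 vehicle mice. Over the 9416 genes the log2 difference M_770 minus M_766 had a Spearman correlation of 0.467 with gene length, and over the 28 genes 0.506. Genes are not independent replicates, so these are descriptions. The median difference was -0.21 for the 1770 genes under 3000 bases and 0.26 for the 1696 genes of 9000 bases or more. FASN (9364 bases) differed by 0.90 and ACACA (13008 bases) by 0.76, while FADS1 (10230 bases) and FADS2 (11026 bases) differed by 0.01 and -0.05. ACLY (5217 bases) and SCD (5362 bases) differed by 0.53 and 0.60, against 0.04 for the 5950 genes from 3000 to under 9000 bases. EBP (2409 bases) and NSDHL (1996 bases) differed by -0.39 each. A trend with length was not confined to this pair. Each mouse was also set against the mean of the others over the 9416 genes. The Spearman correlation with length was -0.489 for M_766, 0.362 for M_769 and 0.317 for M_770. In the tazemetostat group it was 0.469 for M_767, -0.424 for M_768 and 0.0618 for M_774. The part of length in the fold changes between the groups was not tested. M_766 also had the lowest sum of stress genes, 3514 CPM against 4918 CPM in M_770. The part of length or of stress genes in the spread of the fatty acid genes was not tested.

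Library M_768_C showed a difference of the same kind within 1 mouse. The mean log2 CPM of the 8 fatty acid genes was 7.10 in M_768_C and 7.52 and 7.49 in M_768_A and M_768_B, whereas that of the 16 sterol enzymes was 5.57 against 5.37 and 5.36. ACACA differed by -0.80 from the mean of A and B, FADS1 by -0.57 and ACLY by -0.53. PMVK differed by 0.81, EBP by 0.72 and MVD by 0.68. Over 9419 genes the deviation of this library had a Spearman correlation of -0.647 with gene length, and over the 28 genes -0.493. The 4 genes of the 28 with at least 9000 bases had a median of -0.47 and the 4 under 3000 bases a median of 0.52. Over all genes with at least 10 CPM the values were -0.38 (1696 genes) and 0.47 (1772 genes).

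**Figure D4:**
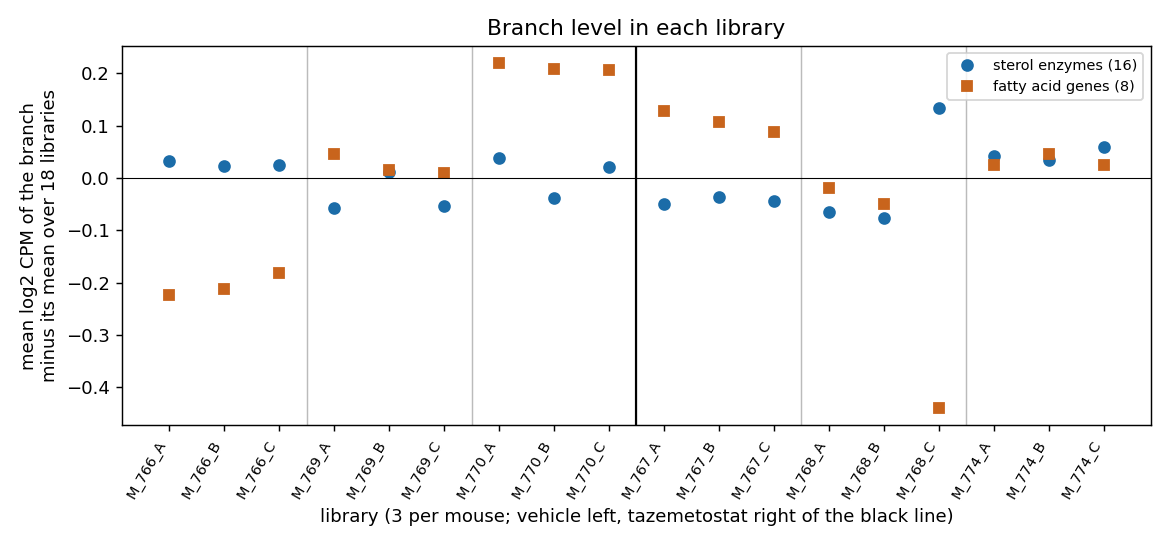
Mean log2 CPM of the 16 sterol enzymes (circles) and the 8 fatty acid genes (squares) in each of the 18 libraries, minus the branch's mean over the libraries, with vehicle left and tazemetostat right of the black line. The fatty acid values of the 3 libraries of a mouse lie close together except in M_768, while the sterol values of different mice overlap. M_768_C has the lowest fatty acid and the highest sterol value of all libraries.

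**Figure D5:**
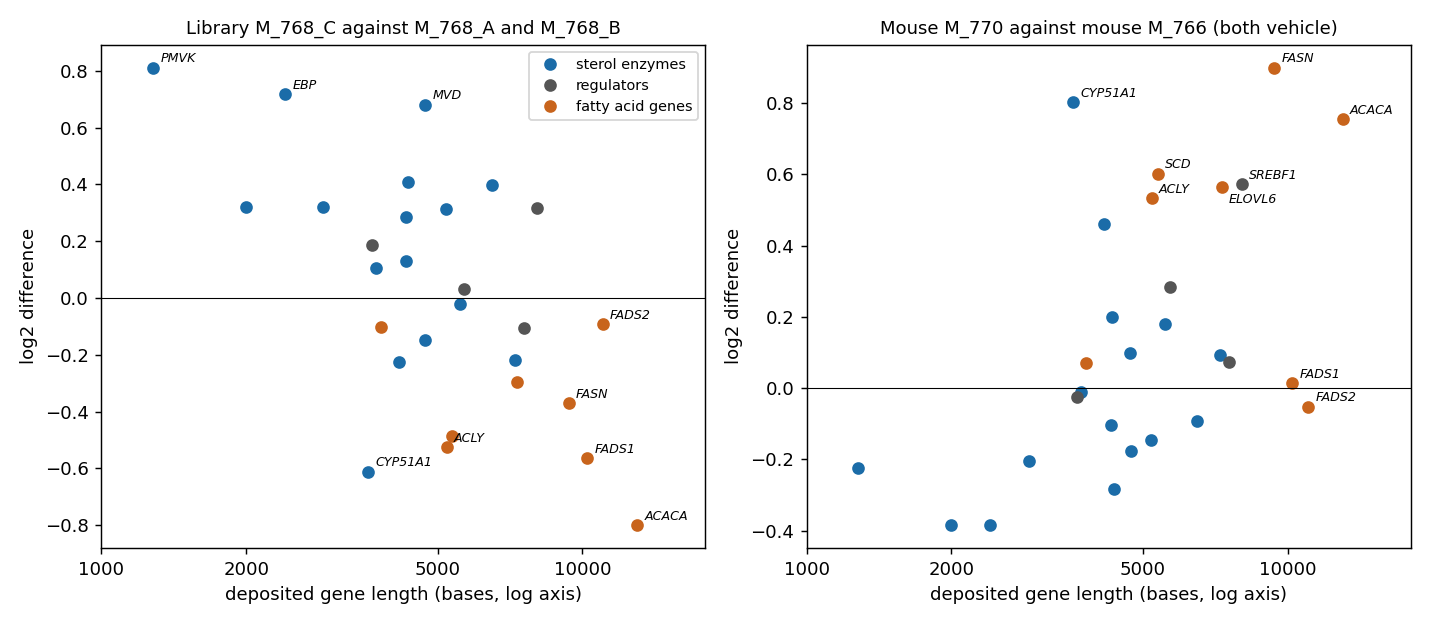
Log2 difference of each of the 28 genes against its deposited length (log axis), for library M_768_C against the mean of M_768_A and M_768_B (left) and for mouse M_770 against mouse M_766 (right). Long genes such as ACACA lie low and the short PMVK lies high on the left, while FASN and ACACA lie high on the right and FADS1 and FADS2 lie near 0 there.

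Leaving M_768_C out raised the level of M_768 in the fatty acid genes. FASN in M_768 was then 531 CPM in place of 492, ACACA 89.9 in place of 78.4, ACLY 438 in place of 396 and FADS1 137 in place of 123. The order of the mice at the extremes did not change for FASN, ACACA, ACLY, SCD or ELOVL6: M_766 was lowest and M_770 highest. The log2 fold changes without the library were -0.08 for FASN, -0.09 for ACACA, 0.02 for ACLY, 0.24 for STARD4 and 0.13 for ELOVL5, and 0 of the 28 genes were called.

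Further genes of the same pathways were read from lists of related genes, and 0 were called in any of them. Of 7 other sterol genes 2 were positive, with a median log2 fold change of -0.02; ERG28, a scaffold of the sterol demethylation enzymes, had 22.1 ± 2.41 CPM with vehicle and 24.9 ± 1.60 CPM with tazemetostat. Of 8 genes that process or degrade the SREBPs and INSIGs 5 were positive (median 0.08). SCAP, which escorts the SREBPs to the Golgi, measured 148 ± 0.733 against 138 ± 3.65 CPM, without overlap (-0.10, adjusted p = 0.884). Of 12 other SREBP target genes 10 were tested and 6 were positive (median 0.09). SLC25A1, the citrate carrier that feeds ACLY, had 88.0 ± 5.22 against 80.3 ± 2.32 CPM. Of 24 other fatty acid genes 21 were tested and 13 were positive (median 0.02). HACD3, a dehydratase of the elongation cycle, measured 104 ± 3.98 against 118 ± 1.70 CPM without overlap (0.18, adjusted p = 0.756), and HSD17B12, the reductase of that cycle, 20.7 ± 0.572 against 23.4 ± 0.906 CPM without overlap (0.18, adjusted p = 0.799). HACD4 was scarce, with 0.721 ± 0.119 against 0.399 ± 0.0949 CPM (-0.85, adjusted p = 0.633).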

How the data were processed

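The authors deposited whole-number read counts for each Ensembl gene in 18 libraries, with gene lengths, per the file headers. The submitters' processing notes name hg38 and DESeq2; which aligner and counter were used, and whether by strand, is not given in the sources used here. Coordinates of all 28 genes matched GENCODE release 29. From these counts, the 3 libraries of each mouse were summed, genes were kept by filterByExpr (minimum count 10), TMM factors were computed, and edgeR 4.0.16 in R 4.3.3 gave quasi-likelihood F tests over 20301 genes, with p adjusted by Benjamini and Hochberg and called under 0.05. Genes filtered out had 0.06% of all counts. The coefficient of biological variation was 0.14. The SE was derived from the log2 fold change and the F statistic of that fit. The 95% interval was built from this SE and a t quantile, so both are approximate. The p-values measure the spread between mice. The steps were tested on simulated counts. Alternatives were other scalings and filters, DESeq2 1.42.0, limma-voom (limma 3.58.1) and leaving out mice or M_768_C. The genes, the lists and the rule for names (all 28 genes, and up to 3 genes with the smallest p per related list) were set with earlier results of these data known. A gene that this rule selected is not reported here.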

Additional observations from a re-analysis of the deposited data

Results flagged for a closer look

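Within each group of 9 libraries, each of the 28 genes was checked for a library lying far from the others (a gap to the nearest library above 0.493 of the group's whole range), 56 checks in all. Chance flags about 1 in 20 such groups, and the 3 libraries of a mouse are not independent. Library M_768_C of the tazemetostat group accounted for all 6 flags. Its value was the highest for PMVK (55.6 CPM against 28.3 to 34.9 in the other tazemetostat libraries), MVD (57.8 against 32.3 to 44.1 CPM) and EBP (81.6 against 47.8 to 53.0 CPM). It was the lowest for ACLY (302 CPM against 433 to 491), ACACA (51.0 against 83.8 to 101 CPM) and FADS1 (91.5 against 130 to 159 CPM).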

How the results depend on the processing

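The count of the 28 genes called stayed at 0 under every alternative run. The count of all genes called, 7 in the reported fit, was 252 with no low-count filter, 124 with DESeq2, 256 with limma-voom on the 18 libraries and the mouse as a random effect, and 224 with the library letter as a replicate block beside it. The letters did not pair the libraries (mean correlation of deviations -0.00407 over 45 same-letter pairs and 0.00205 over 90 others). With a mouse left out the count ran from 0 to 59. Of 448 fold changes of the 28 genes under 16 alternatives, 410 kept their direction and 38 reversed it, and 10 genes reversed in none. On the log2 scale FADS2 (-0.0022 in the reported fit) reversed to 0.00082 with DESeq2 size factors, 0.0053 with total counts, 0.0090 with no filter, 0.00081 with the DESeq2 test and 0.0098 without M_768_C. INSIG1 reversed to -0.019 with upper-quartile factors, and ACLY to 0.022 and ELOVL6 to 0.0084 without M_768_C. With each mouse left out in turn, the ranges that crossed 0 were -0.075 to 0.025 for ACAT2, -0.192 to 0.013 for PMVK, -0.106 to 0.037 for MVD, -0.051 to 0.052 for FDFT1, -0.137 to 0.017 for LSS, -0.354 to 0.021 for CYP51A1, -0.109 to 0.090 for NSDHL, -0.100 to 0.111 for EBP, -0.068 to 0.157 for DHCR7, -0.198 to 0.093 for SREBF1, -0.015 to 0.068 for INSIG1, -0.139 to 0.118 for ACLY, -0.309 to 0.065 for ACACA, -0.286 to 0.181 for FASN, -0.079 to 0.208 for SCD, -0.147 to 0.126 for ELOVL6, -0.106 to 0.032 for FADS1 and -0.059 to 0.059 for FADS2. The sterol median ran from -0.047 to 0.030 with a mouse left out, and was -0.061 with upper-quartile factors. The numbers of genes with groups not overlapping under other scalings were added after the data were seen, and were 0 higher with upper-quartile factors and 0 lower with total counts. The cause of these shifts was not tested. With 3 mice a group, the half-width of the 95% interval on the log2 scale was widest for CYP51A1 (0.482) and FASN (0.446).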

Other observations

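Genes of sterol export, storage and oxysterol handling were read beside the synthesis genes. Of 16 listed genes 14 were tested, 7 were positive and 0 were called, with a median log2 fold change of 0.06. CH25H, which makes an oxysterol that restrains SREBP processing, was scarce, with 0.416, 0.325 and 0.145 CPM in vehicle mice M_766, M_769 and M_770 and 0.577, 0.931 and 0.746 CPM in tazemetostat mice M_767, M_768 and M_774. The groups did not overlap, and the log2 fold change of 1.32 (SE 0.38) did not pass the test (edgeR, adjusted p = 0.472). LIPA, the lysosomal lipase that frees cholesterol from its esters, measured 35.8 ± 1.38 CPM (SD, n = 3) against 42.7 ± 1.71 CPM (n = 3) without overlap (0.25, adjusted p = 0.589 in edgeR). SOAT1, which esterifies cholesterol for storage, measured 37.3 ± 2.79 against 43.1 ± 3.21 CPM without overlap (0.21, adjusted p = 0.764 in edgeR).

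Of 20 genes of fatty acid oxidation, all tested, 11 were positive and 0 were called, with a median of 0.02. ACADM, a dehydrogenase of medium chains, measured 144 ± 9.97 CPM with vehicle and 166 ± 10.5 CPM with tazemetostat. CPT1B, a carnitine transferase, measured 5.17 ± 0.416 against 6.16 ± 0.189 CPM, and ECI1, an isomerase of unsaturated chains, 85.3 ± 15.4 against 69.9 ± 9.30 CPM.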
